A study of Mus musculus with 8 samples.

Results

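The T cell receptor complex and its first signalling steps are described here by 9 genes: Trat1, the CD3 genes Cd3d, Cd3e and Cd3g, the zeta chain gene Cd247, and Lck, Zap70, Lat and Lcp2. They were found by gene symbol in the value table, and 8 of the 9 had at least 1 probe set (a group of array probes summarised to 1 value) that names the gene alone. Lck had no such probe set and was not analysed here. The 8 genes had 13 probe sets, and all 13 passed the filter on dim signal that left 11413 genes for testing. The main value of a gene is that of its brightest probe set over the 8 arrays.

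Gene expression was measured with single-channel arrays on freshly sorted CD4+CD25+ cells from spleen and peripheral lymph nodes of C57Bl/6J mice, without any treatment. The 4 WT samples came from wild-type mice. The 4 RaptorKO samples came from CD4(cre)Raptor(fl/fl) mice, in which Cre recombinase under Cd4 control deletes the floxed gene for Raptor, the scaffold of the kinase complex mTORC1. Cd4 is active from thymic development onward, so every T cell lineage that passes through a CD4-expressing stage can carry the deletion, not only regulatory T cells. The labels give no ages, nor do they say that each sample is a different mouse or pool. The p-values therefore reflect only how much these 8 samples vary, and some of that variation may be technical.

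A T cell recognises antigen through 2 antigen-binding chains that cannot signal by themselves. They travel to the surface with the CD3 gamma, delta and epsilon chains and the zeta dimer, whose tails hold tyrosine motifs. Lck phosphorylates these motifs, the kinase Zap70 docks on them and phosphorylates the scaffold Lat, and Lcp2 (SLP-76) joins Lat to the enzymes that raise calcium and activate Ras. Regulatory T cells depend on this signal for their development in the thymus and for their suppressive function. Trat1 encodes TRIM, a small transmembrane adaptor that associates with the receptor complex.

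The 250 bases upstream of a transcription start are shown for Trat1, the gene that differed most between genotypes, for Cd247, the gene next to it by p-value, and for Cd3e, the gene that differed least. They come from RefSeq (build GRCm38.p6), run 5′ to 3′ on the gene's own strand and lie at chr16:48772063-48772312 (minus strand) for Trat1, chr1:165788431-165788680 (plus strand) for Cd247 and chr9:45009612-45009861 (minus strand) for Cd3e. Other starts of these genes may exist. Capitals mark matches, on either strand, to a core of ETS factors (CAGGAA), of RUNX factors (ACCACA) and of forkhead factors (TGTTTA).
Trat1: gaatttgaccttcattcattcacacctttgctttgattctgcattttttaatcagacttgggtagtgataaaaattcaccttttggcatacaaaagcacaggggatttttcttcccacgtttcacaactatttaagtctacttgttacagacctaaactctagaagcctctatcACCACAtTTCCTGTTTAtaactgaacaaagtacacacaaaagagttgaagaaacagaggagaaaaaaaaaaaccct
Cd247: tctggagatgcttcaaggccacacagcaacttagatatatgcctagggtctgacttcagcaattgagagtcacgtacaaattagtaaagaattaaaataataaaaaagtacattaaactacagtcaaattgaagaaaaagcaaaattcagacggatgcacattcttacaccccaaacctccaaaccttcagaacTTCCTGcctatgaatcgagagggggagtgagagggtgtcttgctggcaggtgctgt
Cd3e: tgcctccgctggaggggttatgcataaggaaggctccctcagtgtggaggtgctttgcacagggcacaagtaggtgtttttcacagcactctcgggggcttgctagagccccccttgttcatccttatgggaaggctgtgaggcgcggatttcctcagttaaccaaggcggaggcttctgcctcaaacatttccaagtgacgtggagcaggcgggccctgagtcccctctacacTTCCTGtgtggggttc

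All 3 windows hold the ETS core, and the Trat1 window also holds the RUNX and the forkhead core, side by side with it; the ETS and forkhead matches there overlap. The 9 genes have 12 windows in the RefSeq table, and 8 of the 12 (of 7 genes) hold the ETS core, 3 of the 12 (of 3 genes) the RUNX core and 1 of the 12, that of Trat1, the forkhead core. Of all 32851 windows of this length in the table, 25.7% hold the ETS core, 14.05% the RUNX core and 12.03% the forkhead core. The motifs were picked with the sequences in view, a match is not a binding site, and binding was not measured.

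Trat1 was the only one of the 8 genes called between the genotypes by its brightest probe set, and of the 8 it had the largest difference. On the log2 scale its brighter probe set read 8.19, 7.72, 7.88 and 7.73 in WT 1 to WT 4 and 6.53, 6.70, 6.46 and 6.61 in RaptorKO 1 to RaptorKO 4. Every RaptorKO array lay below every WT array, with a gap between the groups wider than either group's range. The mean fell by 1.30 (SE 0.12, adjusted p = 0.000235 in limma over 11413 genes), from 7.88 ± 0.22 to 6.58 ± 0.10 (SD, n = 4 each), which is 2.47-fold lower. Only 5 of the 11413 genes had a more negative change. The second Trat1 probe set read 7.64, 7.68, 7.54 and 7.66 in WT and 6.73, 6.44, 6.37 and 6.44 in RaptorKO. It fell by 1.13 (SE 0.11, adjusted p = 0.000775 in limma over 27343 probe sets), again with no overlap, so both probe sets of the gene moved by a like amount.

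Over all genes tested, 224 of 11413 or 1.96% were called at an adjusted p under 0.05, 1.14% as lower and 0.824% as higher in RaptorKO. Among the 8 genes 1 was called lower and 0 higher, and 3 of the 8 (Trat1, Cd247 and Lcp2) reached an unadjusted p under 0.05 in the same limma fit, against 13.0% of all genes in either direction and 7.49% with a negative change. All 8 had a negative change, against 52.4% of all genes, and their median change was -0.22, against -0.0092 over all genes. In 3 of the 8 (Trat1, Cd247 and Lat) every RaptorKO array lay below every WT array, and in 0 every RaptorKO array lay above; over all genes the groups did not overlap in 8.82%, with RaptorKO lower in 5.09% and higher in 3.73%. No test was made over the 8 genes as a set, since they were chosen with earlier results of these arrays known.

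**Figure D1:**
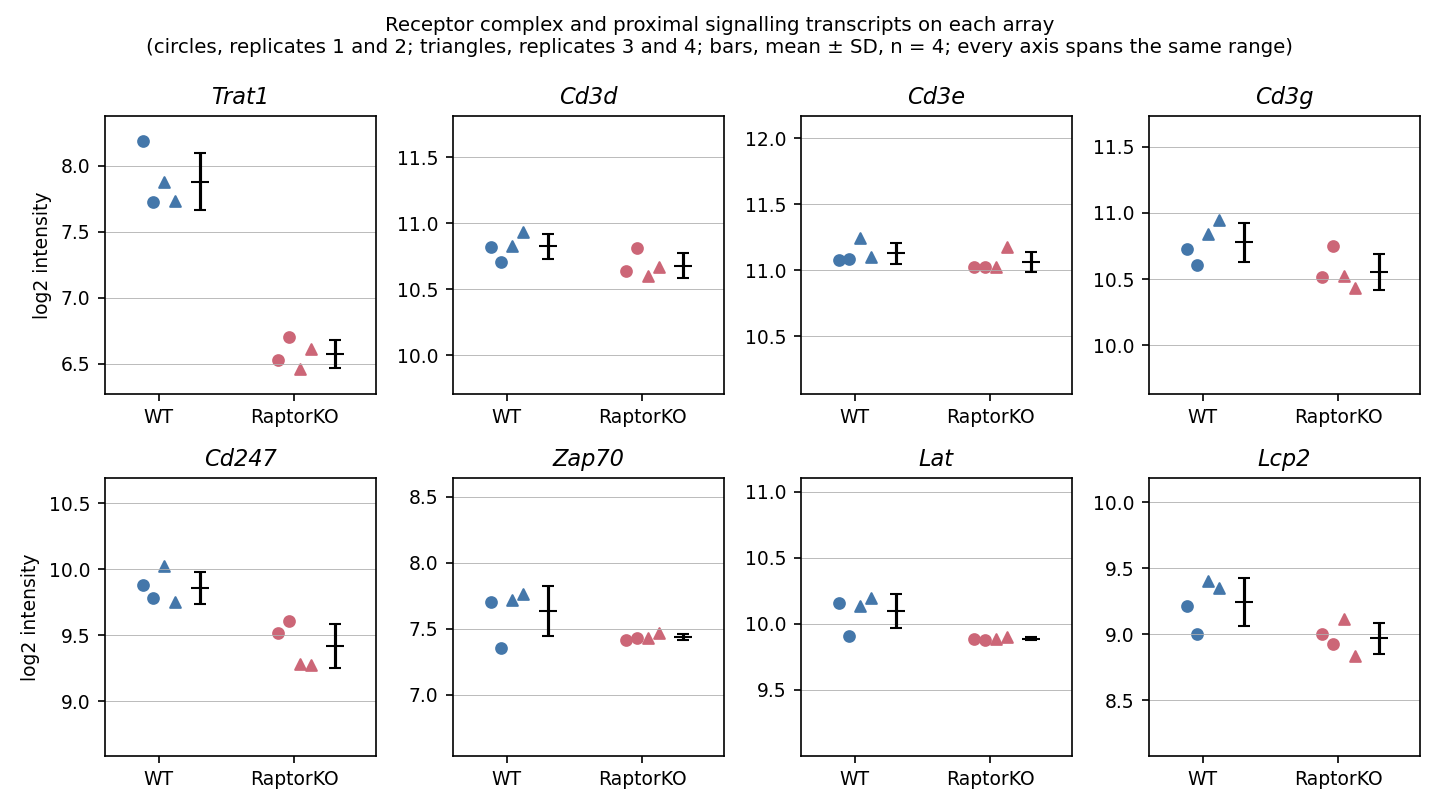
Log2 intensity of the brightest probe set of each gene on the 4 WT and 4 RaptorKO arrays (points), with the group mean ± SD (bars). Trat1 separates by 1.30 between group means, whereas the groups overlap for Cd3d, Cd3e, Cd3g, Zap70 and Lcp2.

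The 3 CD3 chains, which pair as epsilon-gamma and epsilon-delta dimers and which the receptor needs to reach the surface, did not pass the test. Cd3e, the chain shared by both dimers, read 11.08, 11.09, 11.25 and 11.10 in WT and 11.02, 11.03, 11.02 and 11.18 in RaptorKO. Its groups overlapped and the difference was -0.067 (95% confidence interval -0.27 to 0.14, limma adjusted p = 0.852). The lower end of that interval is far from the change of Trat1 in the same cells. Cd3d read 10.82, 10.71, 10.83 and 10.94 in WT and 10.64, 10.81, 10.60 and 10.67 in RaptorKO, a difference of -0.15 (95% confidence interval -0.36 to 0.067, limma adjusted p = 0.611). Cd3g read 10.73, 10.60, 10.84 and 10.95 in WT and 10.51, 10.75, 10.53 and 10.43 in RaptorKO, a difference of -0.22 (95% confidence interval -0.47 to 0.018, limma adjusted p = 0.433). In the RefSeq annotation Cd3g and Cd3d are direct neighbours, with Cd3e next to Cd3d. For both Cd3d and Cd3g, RaptorKO 2 was the highest RaptorKO array and WT 2 the lowest WT array, and the other 3 RaptorKO arrays lay below every WT array.

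Cd247, the zeta chain that limits assembly of the complete receptor, gave different directions with different probe sets. When every probe set was tested by itself, 3 of the 13 were called lower (2 of Trat1, 1 of Cd247) and 0 higher, against 1.11% of 27343 probe sets in either direction, 0.669% lower and 0.443% higher. The brightest read 9.89, 9.78, 10.02 and 9.76 in WT and 9.52, 9.61, 9.29 and 9.28 in RaptorKO. These groups did not overlap, and the difference of -0.44 (SE 0.11, 95% confidence interval -0.69 to -0.19) missed the threshold in limma over 11413 genes (adjusted p = 0.0802). The third by mean read 9.10, 8.98, 9.05 and 8.92 in WT and 8.56, 8.68, 8.46 and 8.41 in RaptorKO and fell by 0.49 (SE 0.10, adjusted p = 0.0497 in limma over 27343 probe sets). The second read 9.01, 9.07, 8.85 and 8.86 in WT and 9.36, 9.26, 9.20 and 9.42 in RaptorKO, and here every RaptorKO array lay above every WT array, as in 3.38% of all probe sets. Its difference was 0.36 (SE 0.10, 95% confidence interval 0.14 to 0.59, adjusted p = 0.150 in limma over 27343 probe sets). The dimmest differed by 0.18 with overlapping groups (95% confidence interval -0.13 to 0.48, limma adjusted p = 0.720).

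Averaged over its 4 probe sets the Cd247 difference shrank to -0.097 (limma adjusted p = 0.714). The gene is known to give alternative carboxy-terminal forms besides zeta, and in the RefSeq annotation it overlaps Pou2f1. The sources used here do not say which transcript, or strand, each probe set detects, so the direction of Cd247 as a gene cannot be settled from these arrays. The call of the third probe set was lost without any single array but RaptorKO 2 (highest limma adjusted p = 0.167, without WT 1), with the replicate number as a block (0.136), without a filter (0.0592), with median centring (0.0772), with robust variance estimates (0.0509) and within either replicate set. The brightest was called without RaptorKO 2 (-0.50, limma adjusted p = 0.0451) and with an intensity trend in the variance model (-0.44, limma adjusted p = 0.0192).

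**Figure D2:**
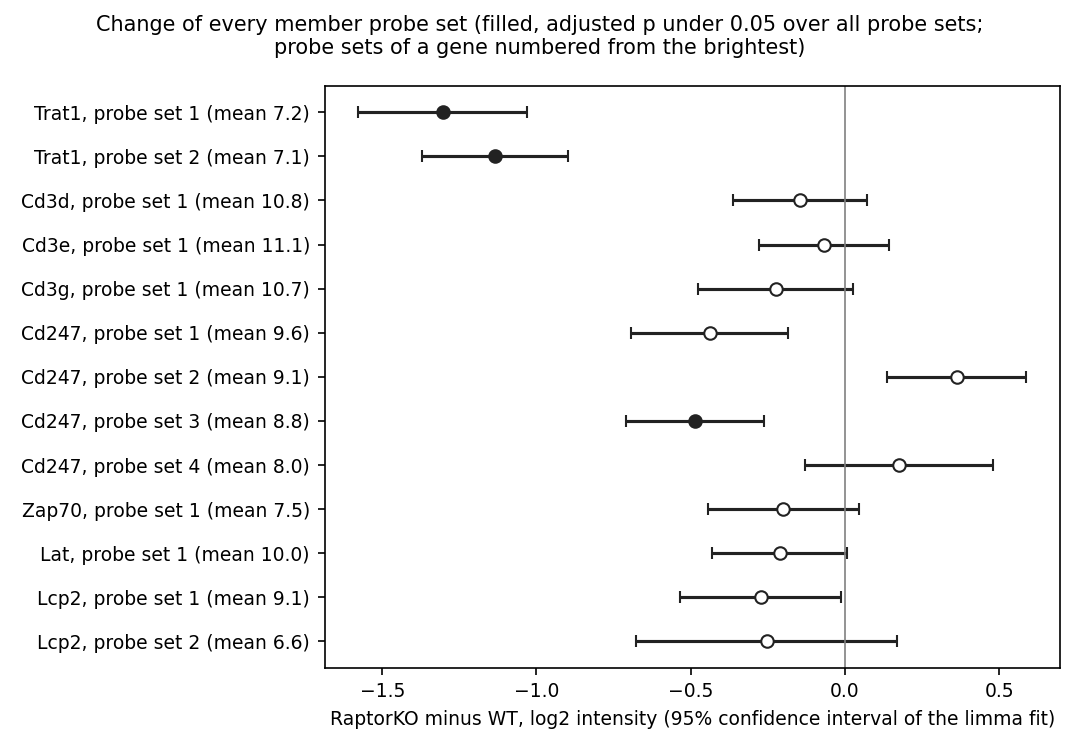
Difference in log2 intensity, RaptorKO minus WT, with its 95% confidence interval from limma, for each of the 13 probe sets. Both Trat1 probe sets lie left of -0.90, the upper end of the interval of the second, and the 4 Cd247 probe sets lie on both sides of 0.

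Zap70, the kinase that binds the phosphorylated CD3 and zeta tails, read 7.71, 7.35, 7.72 and 7.76 in WT and 7.41, 7.43, 7.43 and 7.47 in RaptorKO. WT 2 lay under all 4 RaptorKO arrays, while the other WT arrays lay above them. The difference was -0.20 (95% confidence interval -0.44 to 0.039, limma adjusted p = 0.497), or -0.29 without WT 2 (limma adjusted p = 0.191).

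Lat, the membrane scaffold that Zap70 phosphorylates, read 10.16, 9.91, 10.13 and 10.20 in WT and 9.89, 9.88, 9.89 and 9.90 in RaptorKO. The groups did not overlap, but WT 2 lay just above the highest RaptorKO array. The difference was -0.21 (95% confidence interval -0.42 to 0.00089, limma adjusted p = 0.387). The RaptorKO arrays spread little here, with an SD of 0.0105 for Lat and of 0.0225 for Zap70, against 0.13 and 0.19 in WT.

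Lcp2, the cytosolic adaptor that completes the Lat signalosome, read 9.21, 9.001, 9.40 and 9.35 in WT and 9.002, 8.92, 9.11 and 8.84 in RaptorKO. The difference was -0.27 (95% confidence interval -0.52 to -0.022, limma adjusted p = 0.328), with overlap again through WT 2. A dimmer Lcp2 probe set differed by -0.25 (95% confidence interval -0.68 to 0.17, limma adjusted p = 0.704). An exact two-sided permutation test of single genes gave p = 0.0286 for Trat1, Cd247 and Lat, the smallest value that 4 arrays against 4 allow, before any correction for the 8 genes, and higher values for the other 5.

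Replicates 1 and 2 of both genotypes showed a female pattern of sex-linked transcripts, with Xist between 10.88 and 11.18 and Kdm5d between 3.74 and 4.39. Replicates 3 and 4 showed a male pattern, with Xist between 5.04 and 5.62 and Kdm5d between 8.22 and 8.51. Since each set holds both genotypes, the comparison can be repeated within them. Trat1 differed by -1.34 in replicates 1 and 2 (limma adjusted p = 0.0973, 2 arrays against 2) and by -1.27 in replicates 3 and 4 (limma adjusted p = 0.0185). The brightest Cd247 probe set differed by -0.27 and -0.61, Cd3g by -0.036 and -0.41, Cd3d by -0.043 and -0.25, and Lcp2 by -0.14 and -0.40. For Cd3e the values were -0.059 and -0.075, for Zap70 -0.11 and -0.29, and for Lat -0.15 and -0.27. Apart from Trat1, each of the 8 genes had its larger difference in replicates 3 and 4, but the difference between the sets was not called for any (limma interaction, lowest adjusted p = 0.472, for Cd3g). That interaction was called for 0 of 11413 genes, with 11.4% at an unadjusted p under 0.05.

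Defining markers of regulatory T cells were bright in both groups. Foxp3 lay between 10.79 and 11.04, Il2ra between 11.14 and 11.47, and the summed signal of 6 markers between 12.95 and 13.18 (log2 of summed linear intensities) on all 8 arrays. That sum is led by the brightest genes: Ctla4, an inhibitory receptor, differed by -0.32 (limma adjusted p = 0.169) and the transcription factor gene Ikzf2 by 0.21 (limma adjusted p = 0.342), each without overlap between the groups. The targeted gene Rptor differed by -0.23 (limma adjusted p = 0.491); where its probe sets lie relative to the deleted part is not known here. Markers of conventional CD4 T cells had a negative difference in 4 of 4 tested genes, with a summed signal of 11.02 to 11.20 in WT and 10.86 to 11.08 in RaptorKO. Myeloid markers had a positive difference in 7 of 8, with sums of 8.66 to 9.59 in WT and 9.24 to 10.03 in RaptorKO, while Cd14, Itgam and Adgre1 failed the filter. B cell markers did so in 5 of 6 (sums of 8.22 to 9.39 and 8.66 to 9.23). None of these marker genes was called. In sorted bulk cells, fewer cells of a type and less RNA per cell cannot be told apart.

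CD8 T cells carry the same receptor complex, and their markers varied between arrays. Cd8a ranged from 5.95 (WT 1) to 8.48 (WT 2) within WT and from 5.77 to 7.05 within RaptorKO, a difference of -1.03 (limma adjusted p = 0.341), and Cd8b1 differed by -0.77 (limma adjusted p = 0.103). Nkg7, a gene of cytotoxic cells, went the other way, by 0.87 (limma adjusted p = 0.106), with every RaptorKO array above every WT array. Klrd1, also on this marker list, differed by -0.69 with overlapping groups (limma adjusted p = 0.423). Ncr1, Klrb1c and Klrk1 failed the filter. The summed CD8 T and NK signal was 8.44 to 9.97 in WT and 9.04 to 9.53 in RaptorKO, a mean difference of -0.090. That sum joins changes of both signs, and Nkg7 was its brightest gene in RaptorKO (mean 8.27). The part of these other cells in the differences of Trat1 and of the other 7 genes was not tested.

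**Figure D3:**
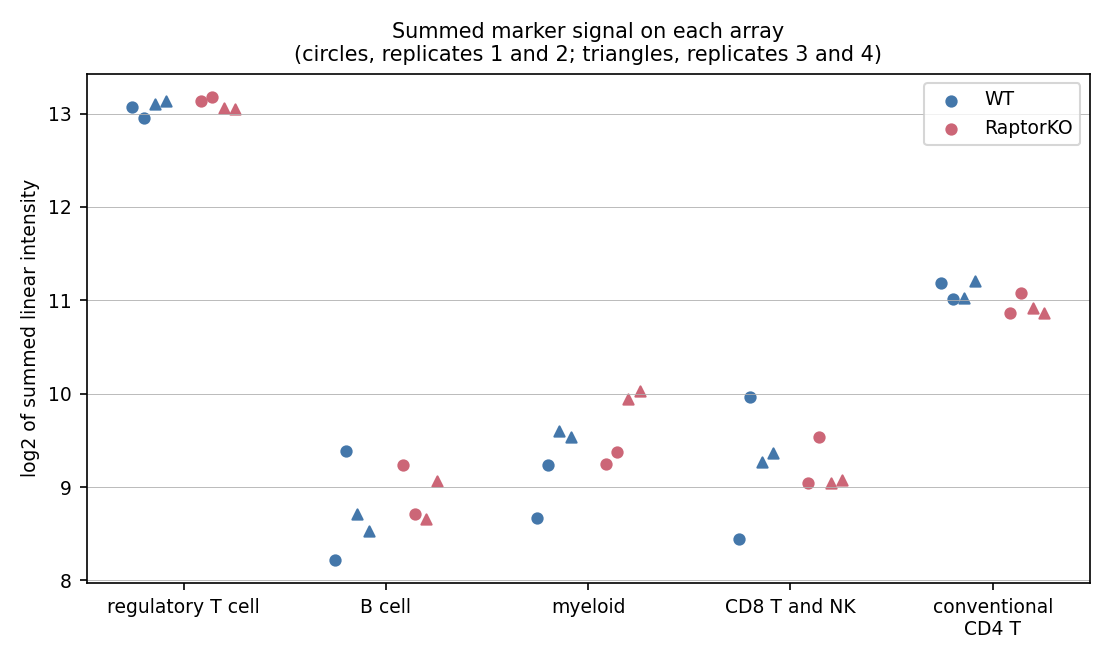
Log2 of the summed linear intensity of each marker list on every array, WT and RaptorKO side by side. Regulatory T cell markers stay between 12.95 and 13.18, while B cell, myeloid and CD8 T and NK markers spread widely within each group.

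Around the 8 genes, 9 lists of the receptor pathway and of relatives in B and myeloid cells named 106 symbols, some of them alternative names. Of these, 76 genes were tested, with 0 from the list of antigen-binding chains. Of the 76, 2 were called lower and 0 higher, against 1.14% and 0.824% of all genes, and 28 had an unadjusted p under 0.05 in limma, against the 13.0% of all genes. Their median change was -0.090, with 49 negative and 27 positive. The antigen-binding chains could not be followed: the probe sets that name Tcra and the pre-receptor gene Ptcra alone stayed dim, between 3.45 and 4.06 and between 3.88 and 4.32, and failed the filter.

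Among coreceptors and accessory surface molecules, 1 of 9 tested genes was called, Slamf6, a self-binding receptor of the SLAM family. It ranged from 8.67 to 8.80 over the WT arrays and from 7.82 to 8.16 over the RaptorKO arrays, without overlap, and fell by 0.75 (SE 0.10, limma adjusted p = 0.00303). Of the 9, 8 had a negative change and the median was -0.29. Cd5, an inhibitory receptor whose level is known to follow receptor signal strength, differed by -0.48 (limma adjusted p = 0.0592). Cd28, the main costimulatory receptor, differed by -0.29 (limma adjusted p = 0.156), and Cd2, an adhesion receptor, by 0.18 (limma adjusted p = 0.468). These last 3 were named after their values were seen.

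Of 7 tested kinases and phosphatases that act at the receptor 0 were called, with a median of -0.068. Fyn, the Src-family relative of Lck, differed by -0.31 (limma adjusted p = 0.176), and Ptpn22, a phosphatase that restrains Lck and Zap70, by 0.23 (limma adjusted p = 0.495). The 4 other transmembrane adaptors, which share with Trat1 and Lat a short outer part and tyrosines in the tail, gave 0 calls and a median of -0.24. Lime1 differed by -0.44 (limma adjusted p = 0.208) and Sit1 by -0.27 (limma adjusted p = 0.237). For Sit1 the 95% confidence interval, -0.49 to -0.056, ends well short of the change of Trat1.

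Of 13 tested cytosolic adaptors 0 were called, 10 had a negative change, and the median was -0.25. Sh2d1a (SAP), the adaptor on which SLAM-family receptors such as Slamf6 rely, differed by -0.46 (limma adjusted p = 0.0604), with WT arrays from 8.01 to 8.37 and RaptorKO arrays from 7.67 to 7.88. Themis, a T cell protein that tunes receptor signalling during selection, differed by -0.37 (limma adjusted p = 0.0802). Both had groups that did not overlap. Sh2d1a was called in 7 of its 22 alternative analyses, with limma adjusted p-values from 0.0270 to 0.593 over all 22.

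The 21 tested effectors downstream of the signalosome gave 0 calls and a median of -0.055, near that of all genes. The actin regulators Wipf1 and Was differed by -0.29 (limma adjusted p = 0.197) and -0.28 (limma adjusted p = 0.284). Among 11 tested brakes 1 was called: Sla, an adaptor that promotes turnover of the zeta chain, ranged from 9.98 to 10.14 over the WT arrays and from 9.51 to 9.73 over the RaptorKO arrays and fell by 0.43 (SE 0.096, limma adjusted p = 0.0466). That call was lost in 16 of 22 alternative analyses. Each of the analyses without 1 array was among them (highest limma adjusted p = 0.157, without WT 3). The median of the brakes was -0.16, with 8 negative and 3 positive. Ubash3b had the most negative change, -0.55, without overlap between the groups, but was not called (limma adjusted p = 0.0544). It was named after its values were seen.

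Transcripts that receptor signalling induces had 0 calls of 8 and a median of 0.050, with 6 positive. The nuclear receptor Nr4a3 differed by 0.65 (95% confidence interval 0.29 to 1.0004, limma adjusted p = 0.0723) and the costimulatory receptor Tnfrsf9 by 0.49 (limma adjusted p = 0.133), each with all RaptorKO arrays above all WT arrays. Nr4a1, often used as a reporter of receptor signalling, differed by 0.49 (limma adjusted p = 0.173), and Irf4, a transcription factor scaled to signal strength, by -0.39 (limma adjusted p = 0.133). Nr4a1 and Irf4 were named after their values were seen. The rest of this list, Egr1, Egr2, Egr3 and Cd69, differed by 0.052, 0.0099, 0.047 and -0.0023. Their groups overlapped (lowest limma adjusted p = 0.917, for Egr3), so the count of positive changes includes values near 0. Relatives of the 9 starting genes, Lck included, that B and myeloid cells use had 0 calls of 3. Fcer1g, which takes the place of the zeta chain in myeloid receptors, differed by 0.49 (limma adjusted p = 0.293) alongside the myeloid markers, and Blk by 0.14 (limma adjusted p = 0.798).

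**Figure D4:**
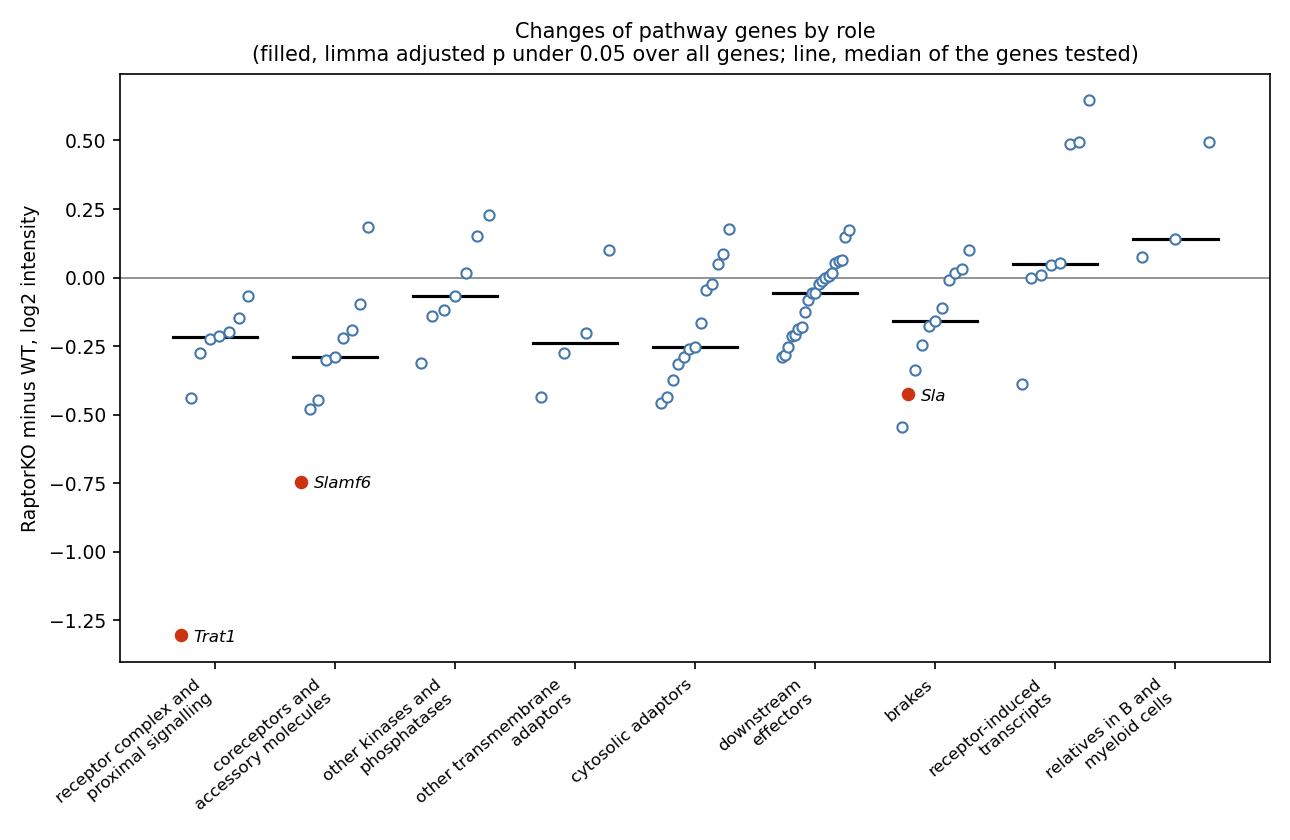
Difference in log2 intensity, RaptorKO minus WT, of the 8 genes and of 76 further pathway genes and relatives grouped by role (points), with the median of each group (lines). Trat1, Slamf6 and Sla are the called genes, and medians run from -0.29 for coreceptors to 0.14 for the relatives in B and myeloid cells.

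The genes whose centred values ran closest to Trat1 over the 8 arrays were Rflnb, Map6, Cyria and Nrp1, with root mean square differences of 0.15, 0.20, 0.21 and 0.23 on the log2 scale. All 4 were called lower themselves, with changes of -1.23, -1.08, -1.29 and -1.44 (limma, highest adjusted p = 0.00119). Genes picked for likeness to a profile that falls this far must fall too, so these calls are no separate result. Nrp1 is the neuropilin receptor found on many thymus-derived regulatory T cells. For the brightest Cd247 probe set the closest were Creb3l2, Sfi1, Hcst and Osbpl9, with root mean square differences from 0.066 to 0.077. Hcst encodes DAP10, a small signalling adaptor of the receptor NKG2D. This likeness is a description over 8 arrays that share the 2 genotypes.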

How the data were processed

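The labels and deposited values cover 4 WT and 4 RaptorKO arrays, with group and replicate number from the sample titles. The authors deposited log2 intensities for 45141 probe sets made with RMA, per the submitters' processing notes, which name no version. Array medians were 5.21 to 5.29, so nothing was renormalized, and the number of arrays limits the precision. Of the probe sets, 28898 named 1 gene, 551 several and 15692 none; 28689 were updated through Entrez identifiers to RefSeq symbols (GRCm38.p6), giving 17097 genes. Only probe sets naming 1 gene were used for genes. A probe set was tested if above its array's 40th percentile (4.69 to 4.81) on at least 4 arrays.

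Comparisons used limma 3.58.1 in R 4.3.3 (lmFit, eBayes, no covariates), with Benjamini-Hochberg adjustment over 11413 genes, or over 27343 probe sets for single probe sets. Related pathway genes were named as up to 4 called genes a list or, with none called, the 2 smallest p-values; the 4 nearest profiles were named for 2 genes, leaving out predicted genes. The genes and lists were chosen with earlier results of these data known. Alternatives were a replicate block, averaging each gene's probe sets, separate probe sets, no filter or a 60th percentile filter, 3 scalings, 3 variance or weight models, the replicate sets and leaving out each array. The scripts were tested on simulated data. Figures used matplotlib 3.10.9 in Python 3.11.15.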

Additional observations from a re-analysis of the deposited data

Results flagged for a closer look

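In 5 of 56 groups of 4 arrays, over the probe sets of the 8 genes and the other named genes, 1 array stood apart from the other 3 by Dixon's ratio; chance gives about 1 in 20. For Cd3e, WT 3 read 11.25 against 11.08 to 11.10 on the other WT arrays, and RaptorKO 4 read 11.18 against 11.02 to 11.03. For Zap70, WT 2 read 7.35 against 7.71 to 7.76. For Wipf1, WT 2 read 9.21 against 9.34 to 9.36. For Blk, WT 4 read 4.57 against 5.17 to 5.24.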

How the results depend on the processing

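Trat1 kept its direction in all 22 alternatives and its call in 21, with changes from -1.36 to -1.20 when single arrays were left out; with replicates 1 and 2 only it was -1.34 (limma adjusted p = 0.0973). The other 7 genes kept a negative sign in every alternative, each read by its brightest probe set or by the mean of its probe sets. Single Cd247 probe sets were positive in the main analysis, the second by 0.36 and the dimmest by 0.18. The sign of Cd247 as a gene therefore stays unsettled. The brightest Cd247 probe set was called with an intensity trend (-0.44) and with array weights (-0.48), and leaving out arrays gave -0.50 to -0.38. For this probe set (-0.44) and Lat (-0.21), the exact permutation test of 1 gene gave p = 0.0286. That uncorrected value is the smallest possible and follows wherever the groups do not overlap, so it is not a call. Calls among the 8 genes were 2 lower with the trend or array weights, 1 to 2 over single arrays left out, and 0 with replicates 1 and 2 only, where 2 genes in all were lower and 7 higher. Pairing of the arrays by replicate number was not seen in the values, which does not exclude it. Deviations of same-numbered arrays from their group means correlated, across genes, at 0.16, -0.15, 0.11 and 0.026. Of the 8 arrays, 2 were closest to their own number. Replicates 1 and 2, and replicates 3 and 4, do share a sex pattern across the genotypes. Over all genes 85 were lower with the replicate block, under which 1 of the 8 stayed called (Trat1 -1.30, limma adjusted p = 0.00139) and Sla lost its call (adjusted p = 0.116). With a trend 223 were lower and 147 higher, with array weights 205 lower, and with replicates 3 and 4 only 50 lower and 35 higher. Leaving out arrays gave 48 to 176 lower (61 when WT 1 was left out, 58 for WT 3, 48 for WT 4, 71 for RaptorKO 1 and 62 for RaptorKO 3) and 53 to 85 higher (60 for WT 2 and 53 for WT 4). Related genes called lower, 2 in the main analysis, were 1 with the block, separate probe sets, no filter, median centring or the replicate-set term, 6 with mean probe sets, 5 with the 60th percentile filter or 75th percentile centring, 7 with the trend or array weights, 0 within either replicate set, and 1 to 3 over arrays left out. Called higher were 2 with quantile normalization and 1 with 75th percentile centring, the trend, array weights or the replicate-set term. Signs turned for Ptpn22 (-0.043, replicates 3 and 4), Blk (-0.083, replicates 1 and 2; -0.019 to 0.20 with arrays left out, the lowest without WT 4) and the dimmest Cd247 probe set (-0.12, replicates 3 and 4). No scaling moved the median of all genes by over 0.01. Quantile normalization nevertheless shrank the negative difference of each of the 8 genes. Cd3d went from -0.15 to -0.080, Cd3e from -0.067 to -0.039 and Cd3g from -0.22 to -0.17. Lat went from -0.21 to -0.16 and Lcp2 from -0.27 to -0.23. The cause was not tested for any of these.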
